A study of Mus musculus with 26 samples.

Results

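The 36 genes described here encode the receptors, peptide signals, junction proteins, transcription factors, secreted regulators and capillary surface proteins by which blood vessel endothelium is usually recognised. They were taken by symbol from the 47642 genes with counts in 26 libraries of cardiac left ventricle, and all 36 had counts. The libraries came from male mice of the isogenic strain C57BL/6.Y<129P2>, which had undergone castration or a sham operation when about 10 days old and were taken at 40 days. Their Y chromosome carried Uty either in wild-type form or with the gene trap UtyGt(XS0378)Wtsi in intron 4. The cassette of a gene trap cuts its host transcript short, and it is present in every cell of the animal, so a vascular difference is not tied to endothelium by the design. Gene-trap mice gave 7 castrated and 6 sham libraries, and wild-type mice gave 7 castrated and 6 sham libraries. QuantSeq forward libraries count tags from the 3′ ends of polyadenylated transcripts. Because whole ventricle was used, fewer cells of a type and less RNA per cell cannot be told apart. The labels do not say which animals gave which libraries, so p-values reflect only how far these samples spread, which may be technical.

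Endothelial cells line every vessel and, in the heart, form a capillary bed that lies against the muscle fibres. Vascular endothelial growth factors signal through Kdr, Flt1 and Flt4, angiopoietins through Tek with its partner Tie1, and adrenomedullin through Calcrl, a receptor that reaches the surface and binds its ligand only together with a receptor activity-modifying protein such as Ramp2 or Ramp3. Transcription factors of the ETS family (Erg, Fli1) and the SoxF family (Sox17, Sox18) are known to act on many endothelial promoters.

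Promoter sequences from RefSeq (GRCm38.p6) were found for 19 of the 36 genes. Each window is the 250 bases before the RefSeq start nearest to the start of the gene in the annotation, written 5′ to 3′ on the strand of the gene, with the letters AGGAAG or CGGAAG (the core that ETS factors bind) or their reverse complements in capitals. Those letters were in 10 of the 19 windows (52.6%) and in 39.2% of the 32851 promoter windows of the whole table. The GATA letters AGATAA or their reverse complement were in 0 of the 19 windows and in 9.99% of all windows. The match is a description of letters and not of a bound site. The sequences are shown for Calcrl and Flt1, which were higher in gene-trap than in wild-type sham ventricles, and for Ramp3, Aqp1 and Eng, which were lower. Calcrl lies at chr2:84425267-84425516 on the minus strand, Flt1 at chr5:147726012-147726261 on the minus strand, Ramp3 at chr11:6658283-6658532 on the plus strand, Aqp1 at chr6:55336049-55336298 on the plus strand and Eng at chr2:32646345-32646594 on the plus strand.
Calcrl: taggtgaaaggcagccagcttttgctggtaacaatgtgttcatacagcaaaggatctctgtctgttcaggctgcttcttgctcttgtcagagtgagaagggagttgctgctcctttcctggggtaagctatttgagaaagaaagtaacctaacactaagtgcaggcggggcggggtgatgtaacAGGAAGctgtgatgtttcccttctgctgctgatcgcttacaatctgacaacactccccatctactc
Flt1: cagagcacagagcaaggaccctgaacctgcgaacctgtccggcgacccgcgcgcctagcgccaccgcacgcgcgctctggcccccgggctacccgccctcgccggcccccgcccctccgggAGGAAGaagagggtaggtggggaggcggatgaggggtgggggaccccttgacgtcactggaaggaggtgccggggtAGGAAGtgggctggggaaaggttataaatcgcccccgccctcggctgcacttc
Ramp3: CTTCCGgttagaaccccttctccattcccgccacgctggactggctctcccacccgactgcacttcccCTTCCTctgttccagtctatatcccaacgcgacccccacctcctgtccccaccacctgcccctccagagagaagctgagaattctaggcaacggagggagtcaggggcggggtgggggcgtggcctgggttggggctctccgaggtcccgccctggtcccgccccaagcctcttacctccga
Aqp1: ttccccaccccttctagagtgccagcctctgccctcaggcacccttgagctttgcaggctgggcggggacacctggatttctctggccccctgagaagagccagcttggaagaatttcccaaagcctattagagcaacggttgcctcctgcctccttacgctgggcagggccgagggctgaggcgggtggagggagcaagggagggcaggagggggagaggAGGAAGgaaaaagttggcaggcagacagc
Eng: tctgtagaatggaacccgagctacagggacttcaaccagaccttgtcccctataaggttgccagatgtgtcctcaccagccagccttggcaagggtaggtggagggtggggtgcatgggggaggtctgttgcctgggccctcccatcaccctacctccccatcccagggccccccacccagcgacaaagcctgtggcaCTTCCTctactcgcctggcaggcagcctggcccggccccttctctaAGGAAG
The RefSeq start lay at the annotated start for Flt1 and Eng and 133 bases before it for Aqp1. It lay inside the gene, by 12 bases for Ramp3 and by 145 bases for Calcrl. The 5 windows shown are among the 10 that hold the ETS letters; Ly6c1, also lower in gene-trap sham ventricles, has a window with 0 matches.

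Libraries held 6357485 to 9399241 counts assigned to genes, and the 36 genes took 0.175% to 0.297% of them. Uty, the trapped gene, had 0 to 1.06 CPM (counts scaled to library size and composition) in gene-trap castrated and 0.124 to 0.723 CPM in gene-trap sham libraries, against 6.59 to 11.8 CPM in wild-type castrated and 6.56 to 10.4 CPM in wild-type sham libraries, as the labels have it. A gene with a count of 0 may have up to 3 counts by counting error alone, which is 0.319 to 0.472 CPM. On the first principal component of all libraries, wild-type sham replicates 1 to 5 lay at -78.2 to -33.6, against 3.41 for replicate 6 and -25.95 to 37.3 in the other 3 groups. The slope of log2 CPM on the GC content of transcript ends had a median of 0.239 per 10 percentage points in wild-type sham libraries, against 0.00966 in gene-trap castrated, -0.0560 in gene-trap sham and -0.147 in wild-type castrated libraries. On the second component, gene-trap castrated replicates 1 to 4 lay at 28.1 to 39.7, against -6.89 to -4.66 for replicates 5 to 7. Results that rest on gene-trap castrated replicates 1 to 4 are given with and without them. Wild-type sham replicates 1 to 5 were left out only 1 at a time, since replicate 6 alone would remain.

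Among castrated mice, 0 of 36 vascular genes passed between genotypes at an adjusted p below 0.05 (edgeR quasi-likelihood test, adjusted over all genes). Of 11693 genes 0.205% were called, 0.0941% higher and 0.111% lower in gene-trap ventricles. An unadjusted p below 0.05 was found for 13 of the 36, and its share over all genes is not given here. DESeq2 called 2 of the 36 and 481 of 11693 genes, and limma voom 0 and 278. Among sham-operated mice, 13 of the 35 genes tested differed (37.1%), with 3 higher and 10 lower in gene-trap ventricles, where 26.3% of 11569 genes were called, 11.9% higher and 14.3% lower. The genes that rose were Calcrl, Lyve1 and Flt1, and those that fell were Aqp1, Ramp3, Egfl7, Gpihbp1, Pecam1, Eng, Ramp2, Tie1, Emcn and Ly6c1. The median log2 fold change was -0.09 in castrated and -0.25 in sham mice over the vascular genes, against 0.0048 and 0.02 over all genes tested.

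Castration changed 15 of 36 vascular genes in wild-type ventricles (41.7%), 6 higher and 9 lower, where 40.3% of 12291 genes were called, 19.1% higher and 21.3% lower. That share is close to the share of all genes. Calcrl, Sox18, Tmem88, S1pr1, Cdh5 and Lyve1 were higher after castration, while Ramp3, Aqp1, Gpihbp1, Egfl7, Emcn, Vwf, Ramp2, Pecam1 and Tek were lower. In gene-trap ventricles castration changed 2 of 36 genes (5.56%), Ly6c1 and Tmem88, both higher, where 0.407% of 12291 genes were called, 0.155% higher and 0.252% lower. The castration effect itself differed between the genotypes for 11 of 36 genes (30.6%), where 20.1% of 12291 genes were called; it was more positive in gene-trap mice for 8 (background 11.8%) and more negative for 3 (background 8.36%).

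The genotype comparison in sham mice and the castration comparison in wild-type mice share the 6 wild-type sham libraries, so their directions are not independent. Taking out the trend of each library with transcript-end GC content left 12 calls for genotype in sham mice, 9 of them among the 13, and 14 for castration in wild-type mice, 4 higher and 10 lower, 10 of them among the 15. For the difference in castration effect it left 8 calls, 7 higher and 1 lower, and 7 of them were among the 11. Flt1, Aqp1 and Lyve1 were among the calls then lost, and were not all of them. Over all genes this setting called 2148 of 11569, 4085 of 12291 and 1395 of 12291 in these 3 comparisons, in the same order. The main fits called 3037, 4956 and 2474. With the first within-group component as a covariate, 0 calls were left in each of these 3 comparisons, where 501, 2 and 0 of all genes were called. That component ran from -2.26 to 0.178 over the wild-type sham libraries, against -1.32 to 1.26 in gene-trap castrated, -0.738 to 1.04 in gene-trap sham and -0.564 to 1.396 in wild-type castrated libraries, so part of it and the group cannot be told apart. Without gene-trap castrated replicates 1 to 4, 0 of 36 genes were called for castration in gene-trap mice and 0 for the difference in castration effect. For that difference no gene of 12693 was then called. Of the 15 calls for castration in wild-type mice 14 remained. Over all genes 3 and 5322 of 12693 were then called for castration in gene-trap and in wild-type mice. Without wild-type sham replicate 6 the counts were 15 for genotype in sham mice, 14 for castration in wild-type mice and 15 for the difference.

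**Figure D1:**
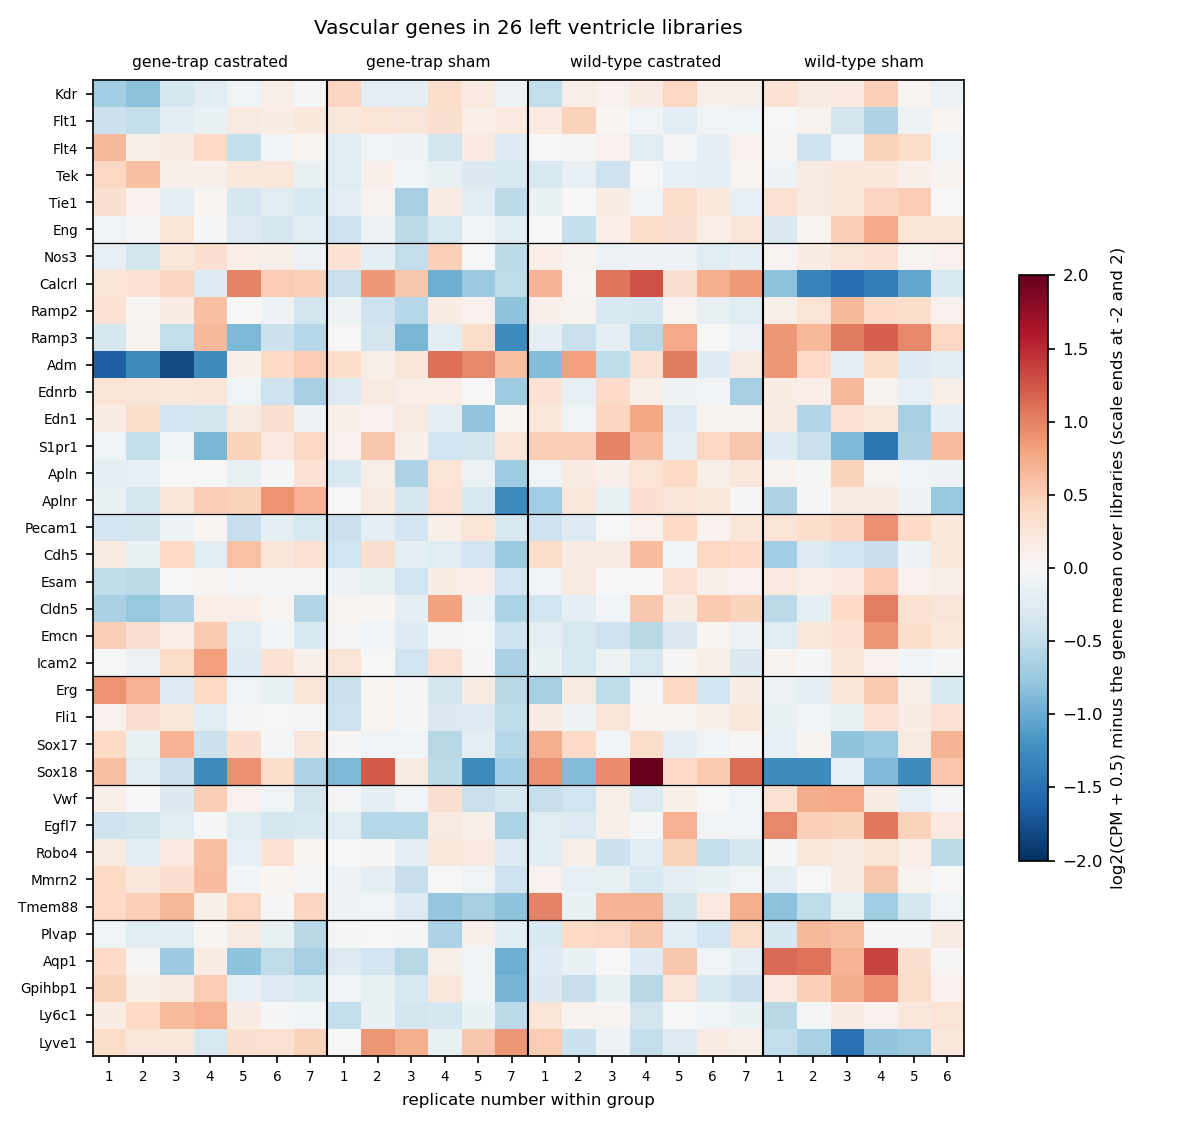
Each row is a vascular gene, each column a library; colour is log2(CPM + 0.5) minus the mean of the gene over the 26 libraries, with horizontal lines between role groups and vertical lines between the 4 groups. Wild-type sham libraries are mostly low for Calcrl and high for Ramp3, and gene-trap castrated replicates 1 to 4 as low for Adm.

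**Figure D2:**
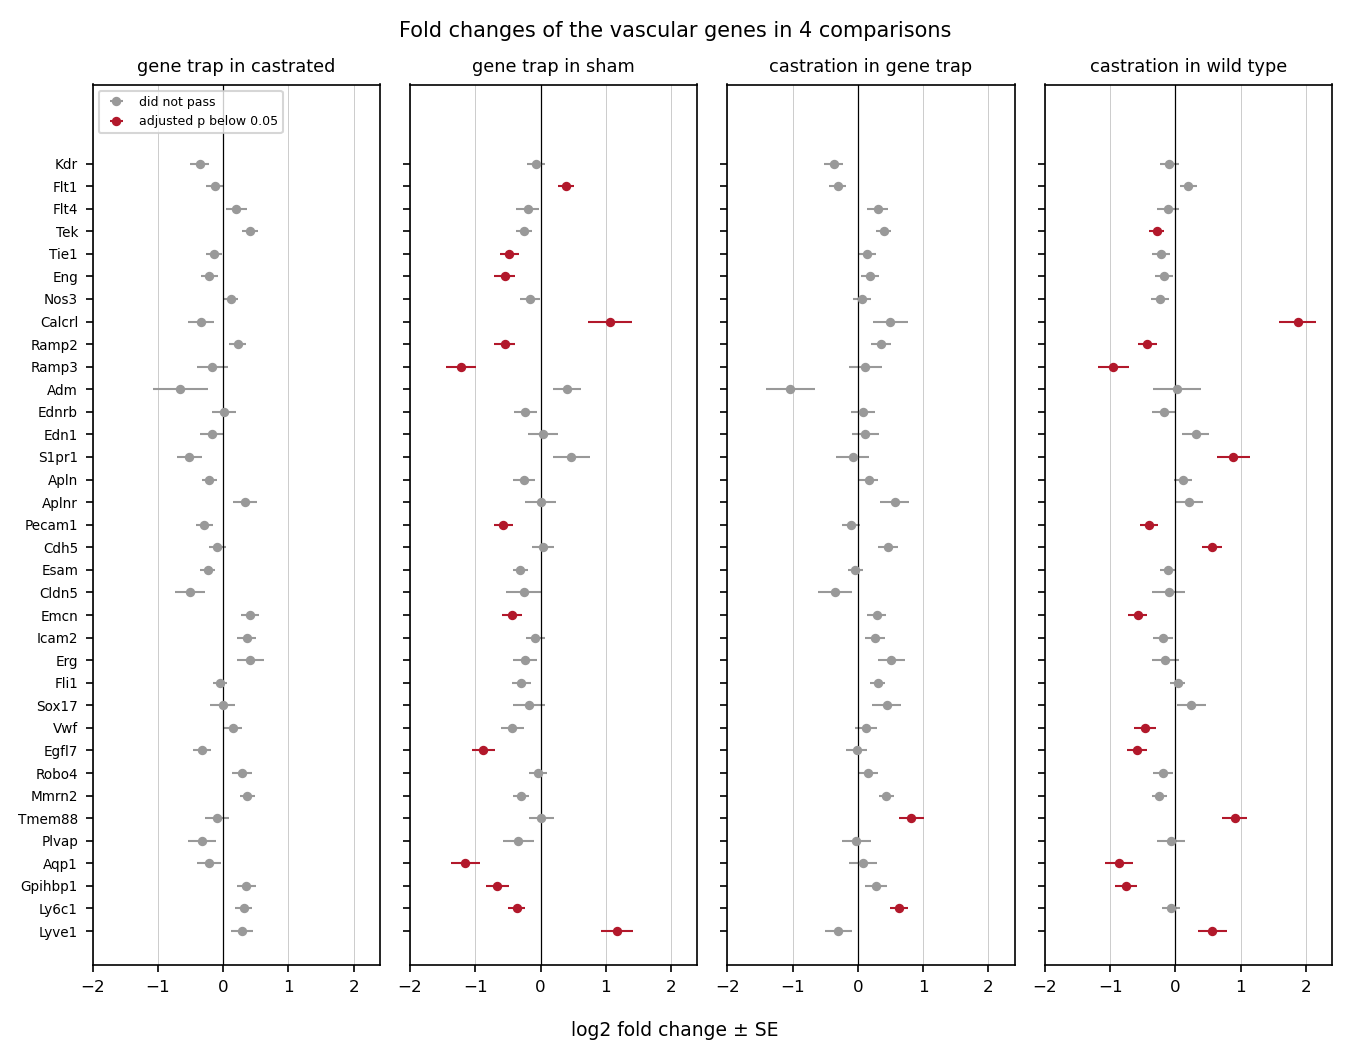
Log2 fold change ± SE of 35 vascular genes in 4 comparisons (Sox18, whose SE is wide, is left out); red points passed an adjusted p of 0.05, grey points did not. Red points number 0 for gene trap in castrated, 13 for gene trap in sham, 2 for castration in gene trap and 14 of the 15 called for castration in wild type.

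Among the receptor tyrosine kinases and their co-receptor, Flt1 was higher and Tie1 and Eng were lower in gene-trap than in wild-type sham ventricles, and Tek responded differently to castration in the 2 genotypes. Flt1 binds vascular endothelial growth factor tightly and also exists as a soluble decoy. Flt1 had 164 to 265 CPM (median 209) in gene-trap castrated, 250.3 to 284 CPM (median 269.6) in gene-trap sham, 198 to 315 CPM (median 218) in wild-type castrated and 150.5 to 240.1 CPM (median 220.5) in wild-type sham libraries. The gene-trap sham and wild-type sham libraries did not overlap, and Flt1 was higher in gene-trap sham ventricles (log2 fold change 0.39 ± 0.12, here and below ± SE, adjusted p = 0.0199). This call was lost without wild-type sham replicate 3 (adjusted p = 0.0539). Its castration effect was more negative in gene-trap than in wild-type mice (difference -0.51 ± 0.18, adjusted p = 0.0454), a call that was lost in 15 of 26 fits that left out 1 library (highest adjusted p = 0.0926) and held only without gene-trap castrated replicate 5, 6 or 7, gene-trap sham replicate 5, wild-type castrated replicate 4, 5, 6 or 7, or wild-type sham replicate 1, 2 or 6. Flt1 was not called for this difference with the GC trend removed.

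Kdr, the main signalling receptor for vascular endothelial growth factor A, had 137 to 265 CPM (median 208) in gene-trap castrated, 214 to 329 CPM (median 254) in gene-trap sham, 174 to 325 CPM (median 264) in wild-type castrated and 224 to 341 CPM (median 278) in wild-type sham libraries. All 4 groups overlapped, and the fold change of Kdr between gene-trap and wild-type sham libraries was -0.07 ± 0.13 (adjusted p = 0.721). In castrated mice it was -0.36 ± 0.15 (adjusted p = 0.185), so Kdr passed in no comparison.

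Tek, the angiopoietin receptor, had 23.2 to 39.4 CPM (median 29.9) in gene-trap castrated, 20.7 to 27.9 CPM (median 22.5) in gene-trap sham, 19.3 to 26.8 CPM (median 22.9) in wild-type castrated and 24.1 to 29.9 CPM (median 28.7) in wild-type sham libraries. Groups overlapped throughout. After castration Tek had a fold change of 0.40 ± 0.12 in gene-trap mice (adjusted p = 0.0799) and fell in wild-type mice (-0.28 ± 0.12, adjusted p = 0.0488). The wild-type call held in 6 of 26 fits that left out 1 library, those without gene-trap castrated replicate 1, 2, 4 or 7, wild-type castrated replicate 7 or wild-type sham replicate 1. The difference between the genotypes (0.68 ± 0.16, adjusted p = 0.00776) stayed below the threshold in all 26 fits, and it was lost without gene-trap castrated replicates 1 to 4. In castrated mice Tek and Mmrn2 were the 2 vascular genes listed below 0.05 in the authors' deposited table, both higher in gene-trap libraries. The share of all genes below 0.05 in that table is not given here. DESeq2 run here called the same 2 (adjusted p = 0.0460 and 0.0461), among 481 of 11693 genes called. For Tek edgeR gave 0.41 ± 0.12 with an adjusted p of 0.100.

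Eng, a co-receptor for TGF-beta and bone morphogenetic proteins, had 29.5 to 45.4 CPM (median 35.7) in gene-trap castrated, 25.8 to 36.2 CPM (median 30.96) in gene-trap sham, 26.9 to 47.98 CPM (median 41.1) in wild-type castrated and 30.6 to 63.9 CPM (median 45.4) in wild-type sham libraries. Although the ranges of the sham groups overlapped, Eng fell in gene-trap sham ventricles (-0.55 ± 0.15, adjusted p = 0.0141), and the call held without each library in turn. Tie1, the partner of Tek, had 15.4 to 27.4 CPM (median 21.2) in gene-trap sham and 24.4 to 35.3 CPM (median 29.5) in wild-type sham libraries and fell (-0.48 ± 0.15, adjusted p = 0.0262). The Tie1 call was lost without gene-trap sham replicate 3 or 7 or wild-type sham replicate 4 or 5, and with the GC trend removed. Flt4, the receptor for the lymphatic growth factors, had group medians of 10.7, 8.70, 9.98 and 9.72 CPM in gene-trap castrated, gene-trap sham, wild-type castrated and wild-type sham libraries and passed in no comparison.

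In whole ventricle, transcripts of the adrenomedullin receptor and of its alternative accessory subunits differed in opposite directions. Whether the receptor complexes themselves differed was not tested. In sham mice Calcrl, the receptor, was higher and both accessory subunits, Ramp2 and Ramp3, were lower in gene-trap than in wild-type ventricles. The same split was seen for castrated against sham wild-type ventricles, a comparison that uses the same wild-type sham libraries. Removing the GC trend took away the Calcrl call in sham mice and both Ramp2 calls. The Calcrl call for castration and both Ramp3 calls held. Once the first within-group component was added to the fit, none of these calls was left. The ligand gene Adm passed in no comparison.

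Calcrl (chr2) had 8.39 to 20.98 CPM (median 13.97) in gene-trap castrated, 4.96 to 19.04 CPM (median 7.26) in gene-trap sham, 10.6 to 25.4 CPM (median 17.2) in wild-type castrated and 3.26 to 8.09 CPM (median 4.25) in wild-type sham libraries. The wild-type sham group had the lowest median, and every wild-type castrated library lay above every wild-type sham library. Between gene-trap and wild-type sham ventricles the difference was 1.06 ± 0.33 (adjusted p = 0.0277), with the 2 highest gene-trap sham libraries, replicates 2 and 3, at 19.0 and 15.1 CPM. That call was lost without gene-trap sham replicate 2 or 3 or wild-type sham replicate 2, 3, 4 or 5, and with the GC trend removed. Castration raised Calcrl in wild-type mice (1.88 ± 0.28, adjusted p = 0.000126), and this held without each library in turn and with the GC trend removed. In gene-trap mice the castration effect was 0.50 ± 0.27 (adjusted p = 0.329), and the difference between the genotypes was -1.38 ± 0.39 (adjusted p = 0.0152). This difference was lost without gene-trap castrated replicates 1 to 4, which had 8.39 to 13.97 CPM, against 14.5 to 20.98 CPM in replicates 5 to 7.

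Ramp3 had 5.24 to 16.2 CPM (median 7.43) in gene-trap castrated, 3.92 to 13.2 CPM (median 8.19) in gene-trap sham, 6.85 to 17.5 CPM (median 8.94) in wild-type castrated and 13.7 to 23.95 CPM (median 19.7) in wild-type sham libraries. No gene-trap sham library reached the lowest wild-type sham library. Ramp3 fell in gene-trap sham ventricles (-1.22 ± 0.23, adjusted p = 0.00162) and in wild-type castrated ventricles (-0.95 ± 0.24, adjusted p = 0.00342), and both calls held without each library in turn and with the GC trend removed. After castration in gene-trap mice the fold change was 0.11 ± 0.26, so the genotypes differed by 1.06 ± 0.35 (adjusted p = 0.0343), a call lost without any 1 of 10 libraries: gene-trap castrated replicate 2 or 4, gene-trap sham replicate 2, 3 or 7, wild-type castrated replicate 2 or 4, or wild-type sham replicate 3, 4 or 5.

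Ramp2, the subunit that makes Calcrl an adrenomedullin receptor in endothelium, had 38.4 to 75.6 CPM (median 51.7) in gene-trap castrated, 28.3 to 55.5 CPM (median 42.00) in gene-trap sham, 39.1 to 53.5 CPM (median 45.1) in wild-type castrated and 52.9 to 78.6 CPM (median 62.1) in wild-type sham libraries. Its ranges overlapped between all pairs of groups. Ramp2 fell in gene-trap sham ventricles (-0.55 ± 0.16, adjusted p = 0.0159) and in wild-type castrated ventricles (-0.43 ± 0.15, adjusted p = 0.0219). With the GC trend removed neither call was left, and the castration call was also lost without wild-type castrated replicate 4 or wild-type sham replicate 3. The castration effect in gene-trap mice was 0.35 ± 0.15 (adjusted p = 0.211), and the difference between the genotypes was 0.78 ± 0.21 (adjusted p = 0.0124). This difference was lost without gene-trap castrated replicates 1 to 4. Ramp2 had 51.7 to 75.6 CPM in those replicates and 38.4 to 50.0 CPM in replicates 5 to 7. Its transcript end overlaps Vps25 on the same strand and 33.3% of its words of 31 bases recur in other genes, so its counts are uncertain.

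Adm, the vasodilator peptide adrenomedullin, had 10.2 to 52.3 CPM (median 15.01) in gene-trap castrated, 40.1 to 79.5 CPM (median 51.3) in gene-trap sham, 19.8 to 76.4 CPM (median 41.05) in wild-type castrated and 30.4 to 67.6 CPM (median 39.8) in wild-type sham libraries. In gene-trap castrated replicates 1 to 4 it had 11.5, 14.8, 10.2 and 15.0 CPM, and in replicates 5 to 7 it had 39.3, 48.6 and 52.3 CPM. The first 4 libraries are those that stand apart on the second component, and they held the 4 lowest Adm levels of all 26. The fold change after castration in gene-trap mice was -1.04 ± 0.37 (adjusted p = 0.144) and between genotypes in castrated mice -0.66 ± 0.42 (adjusted p = 0.392). In wild-type mice the castration effect was 0.02 ± 0.37 (adjusted p = 0.973).

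**Figure D3:**
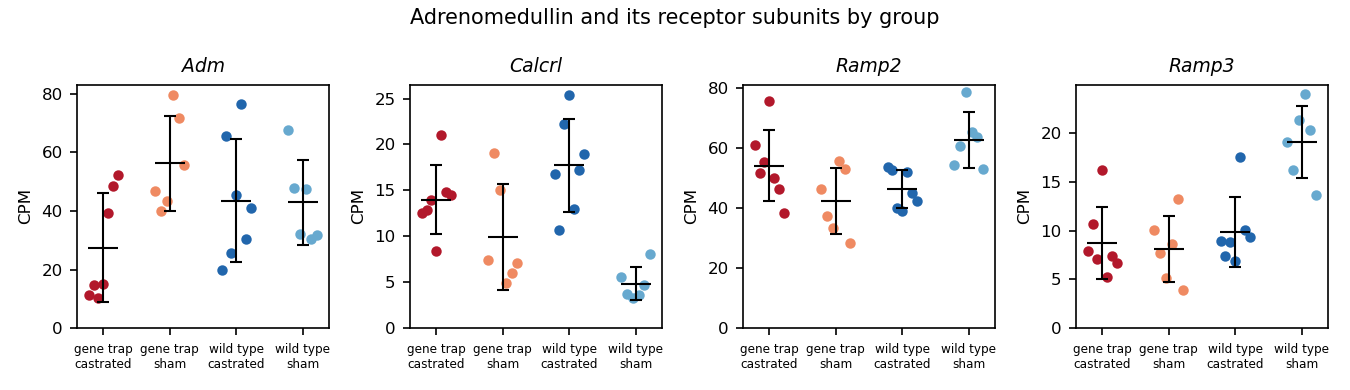
CPM of Adm, Calcrl, Ramp2 and Ramp3 in each library (points), with the mean and SD of each group (lines); groups from left to right are gene-trap castrated, gene-trap sham, wild-type castrated and wild-type sham. The wild-type sham group has the lowest median of Calcrl and the highest of Ramp3, and Adm in gene-trap castrated libraries falls into 4 points near 10 to 15 CPM and 3 points near 39 to 52 CPM.

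Among the other peptide, lipid and nitric oxide signals, S1pr1 alone passed in a comparison. S1pr1, the sphingosine-1-phosphate receptor that tightens the endothelial barrier, had 28.1 to 73.5 CPM (median 50.8) in gene-trap castrated, 40.8 to 78.2 CPM (median 57.5) in gene-trap sham, 46.9 to 107 CPM (median 75.8) in wild-type castrated and 19.3 to 82.6 CPM (median 37.1) in wild-type sham libraries. The groups overlapped, with wild-type sham replicate 6 at 82.6 CPM far above the other 5 libraries of its group (19.3 to 44.6 CPM). Castration raised S1pr1 in wild-type mice (0.89 ± 0.26, adjusted p = 0.00818), also without each library in turn. Its other fold changes were 0.47 ± 0.29 for genotype in sham mice (adjusted p = 0.234), -0.52 ± 0.19 for genotype in castrated mice (adjusted p = 0.147) and -0.97 ± 0.36 for the difference in castration effect (adjusted p = 0.0540).

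The ligand and receptor pairs of the endothelin and apelin systems did not pass in any comparison. Edn1, the vasoconstrictor endothelin, had 5.11 to 8.80 CPM (median 7.65) in gene-trap castrated, 3.73 to 7.83 CPM (median 7.14) in gene-trap sham, 5.53 to 12.1 CPM (median 7.19) in wild-type castrated and 4.11 to 8.51 CPM (median 6.85) in wild-type sham libraries. Its receptor gene Ednrb had 8.16 to 15.95 CPM (median 15.2) in gene-trap castrated, 7.85 to 14.9 CPM (median 13.8) in gene-trap sham, 8.08 to 17.4 CPM (median 12.5) in wild-type castrated and 11.7 to 20.99 CPM (median 14.3) in wild-type sham libraries. Both overlapped in every pair of groups.

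Apln, the ligand apelin, had 20.04 to 28.5 CPM (median 22.6) in gene-trap castrated, 13.9 to 28.2 CPM (median 20.00) in gene-trap sham, 21.9 to 30.7 CPM (median 25.99) in wild-type castrated and 21.5 to 31.5 CPM (median 23.4) in wild-type sham libraries. Aplnr, its receptor, had 20.00 to 47.8 CPM (median 35.1) in gene-trap castrated, 10.3 to 31.5 CPM (median 22.9) in gene-trap sham, 15.6 to 32.1 CPM (median 29.4) in wild-type castrated and 14.8 to 28.9 CPM (median 24.4) in wild-type sham libraries. The largest fold change of the pair was that of Aplnr after castration in gene-trap mice (0.56 ± 0.22, adjusted p = 0.174). Nos3, the endothelial nitric oxide synthase, had group medians of 74.3 CPM in gene-trap castrated, 64.9 CPM in gene-trap sham, 63.7 CPM in wild-type castrated and 75.4 CPM in wild-type sham libraries and passed in none; its end overlaps Atg9b on the other strand, and no source used here says whether the counting used strand.

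Junction and surface genes did not move together. In gene-trap sham ventricles Pecam1 and Emcn were lower than in wild-type sham ventricles, while Cdh5 had a fold change of 0.04 ± 0.17 (adjusted p = 0.874). After castration in wild-type mice Cdh5 rose, and Pecam1 and Emcn fell. Pecam1, an adhesion molecule of endothelium and platelets, had 79.3 to 112 CPM (median 88.8) in gene-trap castrated, 80.01 to 132 CPM (median 92.3) in gene-trap sham, 82.3 to 144 CPM (median 116) in wild-type castrated and 126 to 206 CPM (median 142) in wild-type sham libraries. Gene-trap sham replicate 5, at 132 CPM, lay above wild-type sham replicate 6, at 126 CPM, and every other gene-trap sham library lay below every wild-type sham library. Pecam1 fell in gene-trap sham ventricles (-0.57 ± 0.14, adjusted p = 0.00831), and did so without each library in turn and with the GC trend removed. After castration in wild-type mice it fell too (-0.41 ± 0.14, adjusted p = 0.0186), a call lost without wild-type castrated replicate 1 or wild-type sham replicate 4.

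Cdh5, the cadherin of endothelial junctions, had 71.4 to 125 CPM (median 98.9) in gene-trap castrated, 49.3 to 104 CPM (median 66.9) in gene-trap sham, 79.7 to 128 CPM (median 106) in wild-type castrated and 51.1 to 96.5 CPM (median 66.1) in wild-type sham libraries. Castrated groups were higher than sham groups in median, with overlap. The castration effect was 0.57 ± 0.16 in wild-type mice (adjusted p = 0.00545) and 0.46 ± 0.16 in gene-trap mice (adjusted p = 0.120), and the test of their difference gave -0.11 ± 0.22 (adjusted p = 0.749). The wild-type call was lost with the GC trend removed.

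Emcn, a sialomucin of capillary and venous endothelium, had 43.8 to 77.9 CPM (median 59.4) in gene-trap castrated, 40.6 to 54.4 CPM (median 52.1) in gene-trap sham, 36.8 to 56.2 CPM (median 44.2) in wild-type castrated and 45.5 to 99.6 CPM (median 64.99) in wild-type sham libraries. Its ranges overlapped in every pair of groups. Emcn fell after castration in wild-type mice (-0.58 ± 0.15, adjusted p = 0.00345) and had a fold change of 0.29 ± 0.15 in gene-trap mice, and the difference of 0.86 ± 0.21 (adjusted p = 0.00815) held without each library in turn. This difference was lost without gene-trap castrated replicates 1 to 4, which had 59.4 to 77.9 CPM, against 43.8 to 51.8 CPM in replicates 5 to 7. In gene-trap sham ventricles Emcn was lower (-0.44 ± 0.15, adjusted p = 0.0373), but this was lost without any of 8 libraries (gene-trap sham replicate 1, 2, 3 or 7, wild-type sham replicate 2, 3, 4 or 5) and the fold change shrank to -0.29 without wild-type sham replicate 4. Esam, Cldn5 and Icam2, also junction or surface proteins, passed in no comparison; Esam had medians of 135, 128, 148 and 156 CPM in gene-trap castrated, gene-trap sham, wild-type castrated and wild-type sham libraries, and the authors' deposited table lists it below 0.05 in sham mice.

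Of the 4 transcription factor genes, Erg, Fli1 and Sox17 passed in no comparison, and the size of the Sox18 change depended on a single library. Erg had medians of 11.8, 8.38, 9.34 and 9.58 CPM in gene-trap castrated, gene-trap sham, wild-type castrated and wild-type sham libraries, and Fli1 had medians of 20.6, 17.1, 22.1 and 21.5 CPM. Sox17 lay between 3.97 and 12.3 CPM in all libraries. Sox18 had 0 to 1.75 CPM (median 0.503) in gene-trap castrated, 0 to 2.29 CPM (median 0.283) in gene-trap sham, 0.157 to 16.9 CPM (median 1.74) in wild-type castrated and 0 to 1.26 CPM (median 0.0721) in wild-type sham libraries. Wild-type castrated replicate 4 held 16.9 CPM (143 counts), against 0 to 20 counts in the other 25 libraries. The castration effect in wild-type mice was 3.44 ± 0.98 (adjusted p = 0.00766), a fitted value that depends on the prior count at such low counts, and 2.06 without that library (adjusted p = 0.0454). Sox18 was filtered out for low counts in the sham comparison.

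Among secreted and matrix-associated regulators, Egfl7 was lower in gene-trap sham than in wild-type sham ventricles, and Tmem88 was higher after castration in both genotypes. Egfl7, a secreted protein of growing vessels whose gene also hosts a microRNA, had 73.2 to 96.4 CPM (median 79.4) in gene-trap castrated, 63.3 to 111 CPM (median 74.1) in gene-trap sham, 81.3 to 159 CPM (median 93.8) in wild-type castrated and 112 to 204 CPM (median 136) in wild-type sham libraries. Each gene-trap sham library lay below each wild-type sham library. Egfl7 fell in gene-trap sham ventricles (-0.88 ± 0.17, adjusted p = 0.00209), also without each library in turn and with the GC trend removed. It fell after castration in wild-type mice (-0.59 ± 0.16, adjusted p = 0.00460), a call lost with the GC trend removed. Its end overlaps Agpat2, Gm20532, Mir126a and Mir126b, so its counts are uncertain.

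Tmem88, an inhibitor of Wnt signalling, had 14.9 to 23.3 CPM (median 19.4) in gene-trap castrated, 8.09 to 13.9 CPM (median 10.4) in gene-trap sham, 11.2 to 29.4 CPM (median 23.5) in wild-type castrated and 7.98 to 13.7 CPM (median 10.8) in wild-type sham libraries. All gene-trap castrated libraries lay above all gene-trap sham libraries, and among wild-type libraries the castrated group was higher in median, with overlap. Castration raised Tmem88 by 0.82 ± 0.19 in gene-trap mice (adjusted p = 0.0495) and by 0.91 ± 0.19 in wild-type mice (adjusted p = 0.000950). The difference between the genotypes was -0.09 ± 0.27 (adjusted p = 0.839). In wild-type mice the call held without each library in turn and with the GC trend removed. In gene-trap mice it was lost with that trend removed and in 16 of 26 fits that left out 1 library (highest adjusted p = 0.134), and it held without gene-trap castrated replicate 5, 6 or 7, gene-trap sham replicate 2, wild-type castrated replicate 1, 2 or 5, or wild-type sham replicate 1, 4 or 6. Its end overlaps Naa38 on the other strand.

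Mmrn2, an endothelial matrix glycoprotein, had 79.2 to 127 CPM (median 96.9) in gene-trap castrated, 59.6 to 82.4 CPM (median 74.8) in gene-trap sham, 66.4 to 87.4 CPM (median 74.5) in wild-type castrated and 72.9 to 119 CPM (median 84.8) in wild-type sham libraries. Groups overlapped, with the gene-trap castrated group highest in median. The castration effect was 0.44 ± 0.12 in gene-trap mice (adjusted p = 0.0664) and -0.24 ± 0.12 in wild-type mice (adjusted p = 0.103). Their difference (0.68 ± 0.17, adjusted p = 0.00925) passed, also without each library in turn, but not without gene-trap castrated replicates 1 to 4. Those replicates had 96.9 to 127 CPM of Mmrn2, against 79.2 to 84.3 CPM in replicates 5 to 7. Vwf, the adhesive protein of endothelial granules, fell after castration in wild-type mice (-0.47 ± 0.16, adjusted p = 0.0247), with 14.2 to 21.5 CPM (median 18.9) in castrated and 17.6 to 33.8 CPM (median 23.3) in sham libraries. The Vwf call was lost without wild-type castrated replicate 1 or 4 or wild-type sham replicate 2 or 3, and with the GC trend removed. Robo4, an endothelial guidance receptor, had medians of 37.7, 33.7, 28.4 and 36.8 CPM in gene-trap castrated, gene-trap sham, wild-type castrated and wild-type sham libraries and passed in no comparison.

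Of the transport and capillary surface genes, Aqp1, Gpihbp1 and Ly6c1 were lower and Lyve1 was higher in gene-trap than in wild-type sham ventricles. Aqp1, the water channel of capillary endothelium and of red cells, had 276 to 626 CPM (median 339.7) in gene-trap castrated, 244 to 524 CPM (median 384) in gene-trap sham, 403 to 703 CPM (median 441) in wild-type castrated and 491 to 1237 CPM (median 904) in wild-type sham libraries. Wild-type sham replicates 1 to 4, at 784 to 1237 CPM, lay above all other 22 libraries. Aqp1 fell in gene-trap sham ventricles (-1.15 ± 0.22, adjusted p = 0.00228) and in wild-type castrated ventricles (-0.87 ± 0.21, adjusted p = 0.00281), and did so without each library in turn and with the GC trend removed. The castration effect in gene-trap mice was 0.08 ± 0.21, and the difference between the genotypes (0.95 ± 0.30, adjusted p = 0.0297) was lost with the GC trend removed and without gene-trap castrated replicate 1, 2 or 4, gene-trap sham replicate 3 or 7 or wild-type sham replicate 4. Because Aqp1 is also a red cell gene, the summed level of 8 erythroid markers (Alas2 and globin genes among them) is given beside it: 2120 to 6579 CPM in gene-trap castrated, 1125 to 5221 CPM in gene-trap sham, 1765 to 3913 CPM in wild-type castrated and 3342 to 7256 CPM in wild-type sham libraries. Of these markers 0 of 6 tested were higher and 2 (Hba-a1 and Hba-a2) lower in gene-trap sham ventricles, and 1 was higher and 5 lower in wild-type castrated ventricles; over all genes 14.3% and 21.3% were lower in these comparisons. Their part in the Aqp1 result was not tested.

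Gpihbp1, which carries lipoprotein lipase into the capillary lumen, had 39.8 to 70.9 CPM (median 54.3) in gene-trap castrated, 25.9 to 58.7 CPM (median 46.1) in gene-trap sham, 33.7 to 59.8 CPM (median 40.3) in wild-type castrated and 52.9 to 94.5 CPM (median 67.2) in wild-type sham libraries. The ranges overlapped, with wild-type sham highest in median. Gpihbp1 fell in gene-trap sham ventricles (-0.66 ± 0.18, adjusted p = 0.0112) and after castration in wild-type mice (-0.75 ± 0.17, adjusted p = 0.00137), and both calls held without each library in turn; the sham call was lost with the GC trend removed. The castration effect was 0.28 ± 0.17 in gene-trap mice, and the difference between the genotypes was 1.03 ± 0.24 (adjusted p = 0.00677), also called without each library in turn. This difference was lost without gene-trap castrated replicates 1 to 4, which had 54.3 to 70.9 CPM, against 39.8 to 44.4 CPM in replicates 5 to 7.

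Ly6c1, a surface protein of capillary endothelium and of some leukocytes, had 128 to 216 CPM (median 148) in gene-trap castrated, 92.3 to 121 CPM (median 103) in gene-trap sham, 102 to 161 CPM (median 133) in wild-type castrated and 90.5 to 160.3 CPM (median 145) in wild-type sham libraries. Every gene-trap castrated library lay above every gene-trap sham library. Castration raised Ly6c1 in gene-trap mice (0.63 ± 0.14, adjusted p = 0.0345), a call lost without gene-trap castrated replicate 1, 2, 3 or 4 or gene-trap sham replicate 1, 4, 5 or 7. The effect in wild-type mice was -0.07 ± 0.14 (adjusted p = 0.724), and the difference (0.70 ± 0.19, adjusted p = 0.0133) held without each library in turn. This difference was lost without gene-trap castrated replicates 1 to 4 together. In gene-trap sham ventricles Ly6c1 was lower (-0.36 ± 0.13, adjusted p = 0.0472), which held only without gene-trap sham replicate 2 or 5 or wild-type sham replicate 1. Words of 31 bases shared with other genes make up 27.5% of its transcript end, so its counts are uncertain.

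Lyve1, a hyaluronan receptor of lymphatic endothelium and of resident macrophages, had 10.2 to 17.8 CPM (median 15.9) in gene-trap castrated, 11.5 to 24.1 CPM (median 20.1) in gene-trap sham, 9.10 to 18.3 CPM (median 11.9) in wild-type castrated and 4.26 to 14.9 CPM (median 7.73) in wild-type sham libraries. Sham groups overlapped through 2 gene-trap libraries and wild-type sham replicate 6. Lyve1 rose in gene-trap sham ventricles (1.17 ± 0.25, adjusted p = 0.00317), also without each library in turn and with the GC trend removed. After castration in wild-type mice it rose by 0.57 ± 0.22 (adjusted p = 0.0394), a call lost with the GC trend removed and without wild-type castrated replicate 1, 6 or 7 or any of wild-type sham replicates 1 to 5. The difference in castration effect (-0.87 ± 0.30, adjusted p = 0.0406) was lost with that trend removed and in 14 of 26 fits that left out 1 library, those without gene-trap castrated replicate 2, 3 or 4, gene-trap sham replicate 2, 3 or 7, wild-type castrated replicate 1, 3, 6 or 7, or wild-type sham replicate 2, 3, 4 or 5.

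The sums of 2 marker lists are given beside Lyve1. The summed level of 21 leukocyte markers was 328 to 516 CPM in gene-trap castrated, 416 to 596 CPM in gene-trap sham, 377 to 709 CPM in wild-type castrated and 441 to 691 CPM in wild-type sham libraries, with Itgam at 0 in every library; 3 of 16 tested were higher and 1 lower in gene-trap sham ventricles (11.9% and 14.3% of all genes). The summed level of 8 other lymphatic markers was 191 to 336 CPM in gene-trap sham and 337 to 515 CPM in wild-type sham libraries. Of 6 tested, 0 were higher and 1 was lower in gene-trap sham ventricles (11.9% and 14.3% of all genes). The lower gene was Prox1 (-0.63 ± 0.14, adjusted p = 0.00425). The median log2 fold change of the list was 0.0057, against 0.022 over all genes, so the sum does not stand for the list as a whole. The part of either list in the Lyve1 result was not tested. Plvap, which forms the diaphragms of endothelial pores, had 2.24 to 6.05 CPM in all libraries and passed in no comparison.

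**Figure D4:**
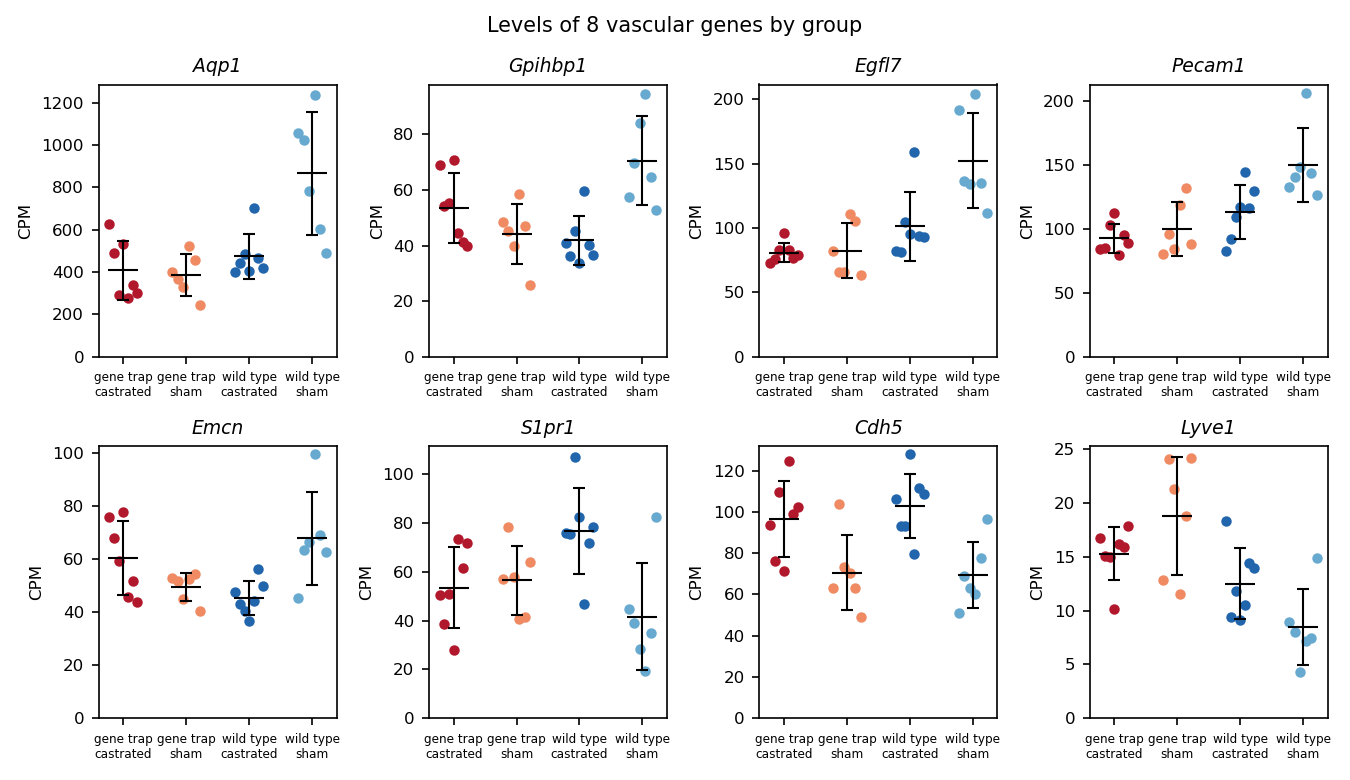
CPM of 8 vascular genes (Aqp1, Gpihbp1, Egfl7, Pecam1, Emcn, S1pr1, Cdh5 and Lyve1) in each library (points) with the mean and SD of each group (lines), in the order gene-trap castrated, gene-trap sham, wild-type castrated and wild-type sham from left to right. Aqp1, Gpihbp1, Egfl7 and Pecam1 have their highest median in wild-type sham libraries, S1pr1 and Lyve1 their lowest, and Cdh5 has a higher median in both castrated groups.

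The 36 genes summed to 2055 to 2502 CPM in gene-trap castrated, 1717 to 2499 CPM in gene-trap sham, 2162 to 2731 CPM in wild-type castrated and 2387 to 3491 CPM in wild-type sham libraries. The medians were 2128, 2161, 2292 and 2873 CPM in gene-trap castrated, gene-trap sham, wild-type castrated and wild-type sham libraries. Without Aqp1 they were 1826, 1777, 1845 and 1935 CPM, so Aqp1 made up much of the difference between the medians. The ranges without it were 1564 to 1969, 1473 to 1975, 1760 to 2028 and 1896 to 2255 CPM, in the same order. A separate list of 38 endothelial genes outside the 36 summed to medians of 1612, 1589, 1789 and 1587 CPM in the same order of groups. Of 35 of them tested, 5 rose (Clec14a, Clec1a, Myct1, Ptprb and Tspan18) and 3 fell (Adgrl4, Rasip1 and Rhoj) in gene-trap sham ventricles; leaving out 1 library gave 3 to 9 higher (3 without gene-trap sham replicate 2, 3 or 4, and 9 without wild-type sham replicate 6) and 3 to 6 lower (6 without wild-type sham replicate 6). After castration in wild-type mice 10 of 36 rose, among them Myct1 (0.89 ± 0.17, adjusted p = 0.000486), Gata2 (1.502 ± 0.31, adjusted p = 0.000775) and Ptprm (0.87 ± 0.18, adjusted p = 0.000874), and 2 fell (Adgrl4 and Ushbp1; 1 fell without wild-type sham replicate 4, and 4 fell without wild-type castrated replicate 5). The shares over all genes were 11.9% higher and 14.3% lower for genotype in sham mice, and 19.1% higher and 21.3% lower for castration in wild-type mice. With the GC trend removed, 2 of the list were higher and 3 lower for genotype, and 9 were higher and 3 lower for castration. That setting called 2148 of 11569 genes for genotype and 4085 of 12291 for castration, in either direction.

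Fold changes of the vascular genes went with the GC content of the last 400 bases of their transcripts, which lay between 31.25% and 55.25% (median 47.5%). Across genes, Pearson's r between GC content and log2 fold change was -0.52 for genotype in sham mice (n = 35 genes) and -0.40 for castration in wild-type mice (n = 36). For all genes tested r was -0.45 and -0.45. Between castrated genotypes it was 0.11 and after castration in gene-trap mice 0.00 over the vascular genes, and 0.25 and 0.10 over all genes. Genes are not independent replicates, and the first 2 values share the wild-type sham libraries. Calcrl and S1pr1 lie at the low end of GC content, while Ramp3, Egfl7 and Gpihbp1 lie at the high end. For genotype in sham mice their log2 fold changes were 1.06, 0.47, -1.22, -0.88 and -0.66. Not every gene followed the trend. Fli1, Edn1 and Ednrb also lie at the low end, with -0.30, 0.04 and -0.23 in that comparison. Tmem88, at 55.25%, had 0.01 there and 0.91 after castration in wild-type mice.

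**Figure D5:**
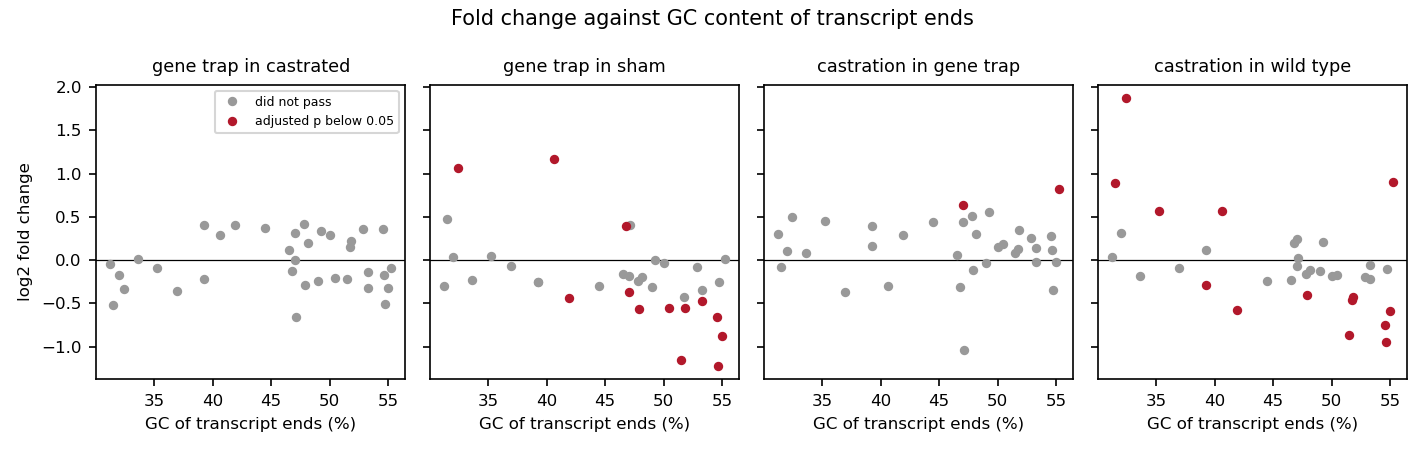
Log2 fold change against the mean GC content of the last 400 bases of transcripts for the vascular genes (Sox18 left out) in 4 comparisons; red points passed an adjusted p of 0.05. In the genotype comparison of sham mice and the castration comparison of wild-type mice, most red points at high GC content lie below 0 and Calcrl, at low GC content, lies above it, while Tmem88 lies above 0 at the high end after castration.

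The partners of these receptors were taken from lists of other vascular genes. Of 7 growth factor ligands and co-receptors for Kdr, Flt1 and Flt4, 4 rose and 2 fell after castration in wild-type mice, against the background of 19.1% and 21.3%. Vegfc, the lymphatic growth factor, rose (2.38 ± 0.45, adjusted p = 0.000452), as did the co-receptors Nrp2 (0.63 ± 0.18, adjusted p = 0.00577) and Nrp1 (0.41 ± 0.11, adjusted p = 0.00608). Pgf, placental growth factor, which binds Flt1, fell (-1.16 ± 0.27, adjusted p = 0.00175). Leaving out 1 library gave 3 or 4 higher and 1 or 2 lower, with 1 lower without wild-type castrated replicate 1, 3, 4, 6 or 7 or wild-type sham replicate 3, 4 or 5. In gene-trap sham ventricles, where 11.9% of all genes were higher, 2 of 7 rose, Nrp2 (0.79 ± 0.15, adjusted p = 0.00147) and Nrp1 (0.38 ± 0.13, adjusted p = 0.0442), and 1 of 7 without gene-trap sham replicate 2, 3 or 7 or wild-type sham replicate 2, 3 or 4. None of the 7 fell there, and 1 fell without gene-trap sham replicate 4 or wild-type sham replicate 6.

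Of 15 Notch pathway genes, which set arterial identity and sprouting, 10 rose and 0 fell after castration in wild-type mice. Over all genes 19.1% were higher and 21.3% lower there. The median log2 fold change of the list was 0.69, against -0.02 over all genes. Like the other lists, it was chosen with earlier results of these data known, so these values only describe it. Jag1, a ligand, rose by 0.90 ± 0.21 (adjusted p = 0.00195), and Notch2, a receptor, by 0.96 ± 0.24 (adjusted p = 0.00314). Maml1, a co-activator, rose by 1.38 ± 0.35 (adjusted p = 0.00314) and Nrarp, a feedback regulator, by 0.81 ± 0.21 (adjusted p = 0.00367). Leaving out 1 library gave 8 to 10 higher, removal of the GC trend 11, and the within-group component as a covariate 0. Over all genes the last 2 settings called 4085 and 2 of 12291, in either direction. In gene-trap mice edgeR called 0 of 15 after castration (3 at an unadjusted p below 0.05, and 0 by DESeq2 and 0 by voom). For the difference between the genotypes it called 0 of 15 (2 at an unadjusted p below 0.05, 2 by DESeq2 and 2 by voom; median -0.46). For genotype in sham mice it called 0 of 14 (2 at an unadjusted p below 0.05, 0 by DESeq2 and 2 by voom), and 3 without wild-type sham replicate 6. Over all genes DESeq2 called 410, 2920 and 3440 in these 3 comparisons, and voom 13, 3152 and 4062. The summed level of the 15 genes was 238 to 333 CPM in gene-trap castrated, 241 to 287 CPM in gene-trap sham, 225 to 325 CPM in wild-type castrated and 172 to 296 CPM in wild-type sham libraries.

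Of 18 other endothelin, adrenomedullin, apelin, nitric oxide and sphingosine partners, 3 rose and 3 fell after castration in wild-type mice, where 19.1% of all genes were higher and 21.3% lower. The split was 5 higher and 2 lower with the GC trend removed, and 6 higher and 4 lower with voom. Over all genes those settings called 4085 and 6313 of 12291, in either direction. The endothelin receptor gene Ednra rose (1.20 ± 0.34, adjusted p = 0.00669), as did Gucy1b3, a subunit of the nitric oxide receptor guanylate cyclase (1.03 ± 0.17, adjusted p = 0.000169), and Cav1, the caveolar coat protein (0.57 ± 0.13, adjusted p = 0.00191). Sphk2, a sphingosine kinase, fell (-0.79 ± 0.20, adjusted p = 0.00256), and so did Ddah1 and Ramp1. Without wild-type sham replicate 6 it was 5 that rose, and without wild-type sham replicate 4 it was 1 that fell. In gene-trap sham ventricles, where 11.9% of all genes were higher, 1 of 16 rose, S1pr2 (0.57 ± 0.18, adjusted p = 0.0264), which was 0 without gene-trap sham replicate 4 or wild-type sham replicate 2 and 4 without wild-type sham replicate 6. None fell there, and 2 fell without gene-trap sham replicate 4 or wild-type sham replicate 6.

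Of 14 capillary markers outside the 36, 4 rose and 1 fell in gene-trap sham ventricles, where 11.9% of all genes were higher and 14.3% lower. With the within-group component as a further term 1 was higher and 0 lower, where 501 of 11569 genes were called. Fabp4, a fatty acid binding protein, rose (1.36 ± 0.32, adjusted p = 0.00940), as did Fabp5 (0.68 ± 0.15, adjusted p = 0.00398), and Timp4 fell (-0.81 ± 0.22, adjusted p = 0.0139); 2 rose without gene-trap sham replicate 3. The capillary list summed to 16107 to 19808 CPM in gene-trap sham libraries, against 12523 to 16694 CPM in wild-type sham libraries, so that its sum was higher while Aqp1, Gpihbp1 and Ly6c1 were lower. A sum follows its most abundant genes. Of the 14 markers 9 were not called, and their median log2 fold change was 0.11, against 0.02 over all genes. Of 11 arterial markers 4 rose and 0 fell after castration in wild-type mice, where 19.1% of all genes were higher and 21.3% lower (Efnb2, Tm4sf1, Unc5b and Dll4, of which Dll4 is also counted as a Notch gene and Tm4sf1 among the 38 endothelial genes). Cardiomyocyte markers, 16 genes, summed to 76133 to 119612 CPM in gene-trap castrated, 84960 to 104488 CPM in gene-trap sham, 76484 to 125745 CPM in wild-type castrated and 94129 to 165418 CPM in wild-type sham libraries; 11 of 16 were lower after castration in wild-type mice (21.3% of all genes), and 5 were lower and 2 higher in gene-trap sham ventricles, where 14.3% of all genes were lower and 11.9% higher (3 lower without gene-trap sham replicate 2 or 3 or wild-type sham replicate 3 or 4, and 8 lower without wild-type sham replicate 6). The part of muscle and blood cell content in the vascular results was not tested.

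In the authors' deposited table for sham mice, 11 of the 35 with an adjusted p were below 0.05, 1 higher (Lyve1) and 10 lower in gene-trap libraries. Calcrl, Flt1 and Emcn, called here, were not among them, and Esam was. Sox18 had no adjusted p there. The share of all genes below 0.05 in that table is not given here, so the 11 stand without a background.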

How the data were processed

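Counts of 3′ tags per gene and library were used as deposited; the authors' tables hold raw read counts for 14 castrated and 12 sham libraries. Beside them the file headers give the authors' DESeq2 results: the mean signal after scaling, the log2 fold change of wild type over gene trap, a test score, and p-values with adjusted values. The submitters' processing notes name the builds GRCm38 and mm10 and the tools STAR, featureCounts 1.6.0, DESeq2 1.22.2, CASAVA 1.4 and FastQC, without their order. The strand setting of the counting was not given in the sources used here. Of all reads, 41.9% to 46.8% were not unique, 2.66% to 4.62% lay in no gene and 0.277% to 0.358% were ambiguous, and these were left out. Genes detected per library numbered 15442 to 16903.

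Counts were filtered with filterByExpr, scaled by TMM and tested with edgeR 4.0.16 (quasi-likelihood, robust, in R 4.3.3), with Benjamini-Hochberg adjustment over all genes and a threshold of 0.05. The genotype fits used 14 castrated or 12 sham libraries, and the castration fits and their difference all 26. The SE is the fold change divided by the square root of F. DESeq2 1.42.0 and limma 3.58.1 were alternatives, and the scripts were tested on simulated data. The GC trend alternative was chosen after seeing the data. The 36 genes and all lists were chosen with earlier results of these data known. Full values are given for up to 3 called genes per role with the smallest p and for ligand and receptor pairs; Lyve1 and S1pr1 follow from these, and examples from other lists are up to 4 per list with the smallest p, or named in full where few were called. The labels do not say what the replicate numbers stand for, and the main fits did not pair samples by them. Correlations between samples of the same number cannot exclude a pairing. Of the columns, 0 belonged to other samples.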

Additional observations from a re-analysis of the deposited data

Results flagged for a closer look

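In 13 of 144 groups of a vascular gene, 1 library lay apart from the rest of its group by Dixon's criterion, which chance meets in about 1 in 20 groups. Wild-type castrated replicate 5 was the highest of its group for Aqp1 (703 CPM), Egfl7 (159 CPM) and Ramp3 (17.5 CPM), genes that were lower in that group than in wild-type sham libraries. Wild-type sham replicate 4 was the highest for Pecam1 (206 CPM) and Esam (198 CPM), and wild-type sham replicate 3 for Apln (31.5 CPM) and Ednrb (21.0 CPM). Gene-trap castrated replicate 4 was the highest for Egfl7 (96.4 CPM) and the lowest for Lyve1 (10.2 CPM), and replicate 7 of that group the highest for Apln (28.5 CPM). Gene-trap sham replicate 4 was the highest for Cldn5 (9.12 CPM) and replicate 2 for Sox18 (2.29 CPM). Wild-type castrated replicate 4 was the highest for Sox18 (16.9 CPM).

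The castration effect differed between gene-trap and wild-type mice for 11 vascular genes, by edgeR's test of the difference itself, adjusted over all genes. On the log2 scale, gene trap minus wild type, it was 0.95 for Aqp1, 0.86 for Emcn, 1.03 for Gpihbp1, 0.70 for Ly6c1, 0.68 for Mmrn2, 0.78 for Ramp2, 1.06 for Ramp3 and 0.68 for Tek. It was -1.38 for Calcrl, -0.51 for Flt1 and -0.87 for Lyve1. None of the 11 passed without gene-trap castrated replicates 1 to 4.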

How the results depend on the processing

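The 5 counts of called vascular genes were recomputed under each alternative. For castration in gene-trap mice (2 called) the count was 1 with DESeq2's size factors, 4 with the DESeq2 test, 1 with the GC trend removed, 0 at a threshold of 0.01, 0 with limma voom, 1 with a minimum group mean of 10 counts, 0 with a fit on the gene-trap samples alone, 7 with the first within-group component added and 0 without gene-trap castrated replicates 1 to 4. Over all genes the main fit called 50 of 12291. In the same order these settings called 45, 410, 165, 2, 13, 47, 5, 871 and 3 of 11703 to 12693 genes. For genotype in castrated mice (0 called) it was 2 with DESeq2, 1 with all 26 samples in the fit and 1 with the component. Over all genes these called 481 of 11693, 257 of 12291 and 147 of 11693, against 24 of 11693 in the main fit. For genotype in sham mice (13 called) it was 5 at 0.01 and 0 with the component, where 1338 and 501 of 11569 genes were called. For castration in wild-type mice (15 called) it was 0 with the component, where 2 of 12291 genes were called, and 10 to 16 otherwise. The 10 at a threshold of 0.01 and the 16 with limma voom came with 2854 and 6313 of 12291 genes. For the difference in castration effect (11 called) it was 4 at 0.01, 0 with the component and 0 without gene-trap castrated replicates 1 to 4. Over all genes these called 518 of 12291, 0 of 12291 and 0 of 12693. With the component as a covariate the fold change turned to -0.0103 for Calcrl in sham mice, and for castration in wild-type mice to -0.0026 for Lyve1, 0.0603 for Ramp2, 0.0029 for Ramp3 and -0.10 for S1pr1; the cause was not tested. Removing the GC trend gave 4 higher and 10 lower against 6 and 9 for castration in wild-type mice, and 7 and 1 against 8 and 3 for the difference. Over all genes it called 4085 and 1395 of 12291, against 4956 and 2474 in the main fits.

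Leaving out 1 library at a time gave 0 to 4 calls for castration in gene-trap mice, 11 to 15 for castration in wild-type mice, 0 to 0 for genotype in castrated mice, 9 to 15 for genotype in sham mice and 7 to 15 for the difference. In the first of these it was 0 without gene-trap castrated replicate 1, 2, 3 or 4 or gene-trap sham replicate 1, 4, 5 or 7 and 4 without gene-trap castrated replicate 7 or gene-trap sham replicate 2. The difference had 7 calls without gene-trap castrated replicate 2 or 4, gene-trap sham replicate 3 or 7 or wild-type sham replicate 4.

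Samples with the same replicate number did not deviate together in every pair (correlations of -0.400 to 0.0862 between castrated genotypes and -0.123 to 0.277 between sham genotypes, with 0 of 7 and 1 of 5 pairs best matched with their own number; -0.360 to 0.323 and -0.225 to 0.127 between surgeries within gene-trap and wild-type mice, each with 1 of 6). A fit with the replicate number as a block kept only numbers present in every group fitted. Apart from genotype in castrated mice, it thus held replicates 1 to 5 only. It called 0 for genotype in castrated mice, 12 for genotype in sham mice, 3 for castration in gene-trap mice, 14 for castration in wild-type mice and 13 for the difference. Over all genes it called 3 of 11693, 3733 of 11552, and 331, 4379 and 2758 of 12247, in the same order. Adm had a log2 fold change of -1.71 after castration in gene-trap mice in this edgeR fit (adjusted p = 0.0290). Gene-trap castrated replicates 6 and 7, at 48.6 and 52.3 CPM of Adm, were not in it. The block and the dropped libraries cannot be told apart here. Depth limits Sox18 most, which had 0 to 20 counts in 25 of 26 libraries.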
